A study of Homo sapiens with 2 samples.

Results

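The 51 genes described here encode Polycomb proteins, heterochromatin protein HP1, histone deacetylases, sirtuins, corepressor scaffolds and lysine demethylases. Their rule is a list of gene symbols and uses no measured value, though earlier results of these data were known when the list was drawn up. All 51 were found under their symbols among the 13137 genes with digital gene expression (DGE) tags. DGE counts short sequence tags captured from polyadenylated mRNA. The cells were A549, a human lung adenocarcinoma line, made into polyclonal populations with a doxycycline-inducible hairpin driven by an H1tetO promoter. In the population A549-H1tetO-shRNA-SOX2 the hairpin targets SOX2, a transcription factor of stem cells, and in A549-H1tetO-shRNA-Con it is a scrambled sequence. Both were kept in doxycycline for 4 days, and 1 library was made from 4 µg of total RNA of each.

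Polycomb repressive complex 2 (PRC2) methylates a lysine of histone H3, and Polycomb repressive complex 1 (PRC1) reads that mark, ubiquitinates histone H2A and compacts chromatin. Deacetylases remove acetyl groups from histones and other proteins, usually as subunits of corepressor complexes, whereas sirtuins do so at the expense of NAD. Demethylases erase either active or repressive methyl marks, so the members do not all act on chromatin in the same direction.

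The libraries held 2304184 gene tags (shRNA-Con) and 2093816 gene tags (labelled shRNA-SOX2). Below, each pair of tag counts gives shRNA-Con first, and each ratio or log2 fold change sets the library labelled shRNA-SOX2 against shRNA-Con, each divided by its gene tags. The columns carry the abbreviations SC and S1, which were read as shRNA-Con and shRNA-SOX2. SOX2 itself was counted 16 and 23 times, a ratio of 1.58 with a 95% interval of 0.800 to 3.20, so the targeted mRNA does not check the labels, and each direction below rests on them. Of the epithelial markers, KRT8 (7702 and 12729 tags) and KRT18 (10318 and 7887) were abundant, CDH1 had 50 and 50, and EPCAM had only 8 and 4. Tags of PTPRC, a leukocyte marker, and PECAM1, an endothelial marker, numbered at most 3 in a library. Of the fibroblast markers, COL1A1 had 44 and 43 tags, PDGFRB had 0 and 2, and COL3A1 was not listed. The leukocyte markers CD3E and CD79A and the endothelial marker CDH5 were not listed either. In a bulk library, fewer cells that express a gene and less RNA per cell cannot be told apart.

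With 1 library per condition there was no spread between replicates. Each gene's tags were therefore compared by Fisher's exact test, two-sided, with Benjamini-Hochberg adjustment over all 13137 genes, at the study's FDR of 0.001. Such a test compares 2 libraries and not the conditions, and the 95% intervals (Clopper-Pearson) cover counting error only.

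Of the 51 members, 13 passed FDR 0.001. BMI1, PCGF2, CBX5, HDAC2, HDAC4, SIRT1, SIRT3, NCOR1 and KDM4A had a ratio below 1, and HDAC5, HDAC6, HDAC10 and HDAC11 had a ratio above 1. The 9 lower members are 17.6% of the list, against 12.2% of all genes tested, and the 4 higher members are 7.84%, against 9.53%. Of the 47 members whose tags sum to at least 20 over both libraries, 6 were at least 2-fold lower (12.8%, against 13.0% of the 10045 genes with that many tags) and 4 at least 2-fold higher (8.51%, against 10.4%). These shares were near the background. The median log2 fold change was -0.20 over these 47 members and -0.10 over the 10045 genes.

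**Figure D1:**
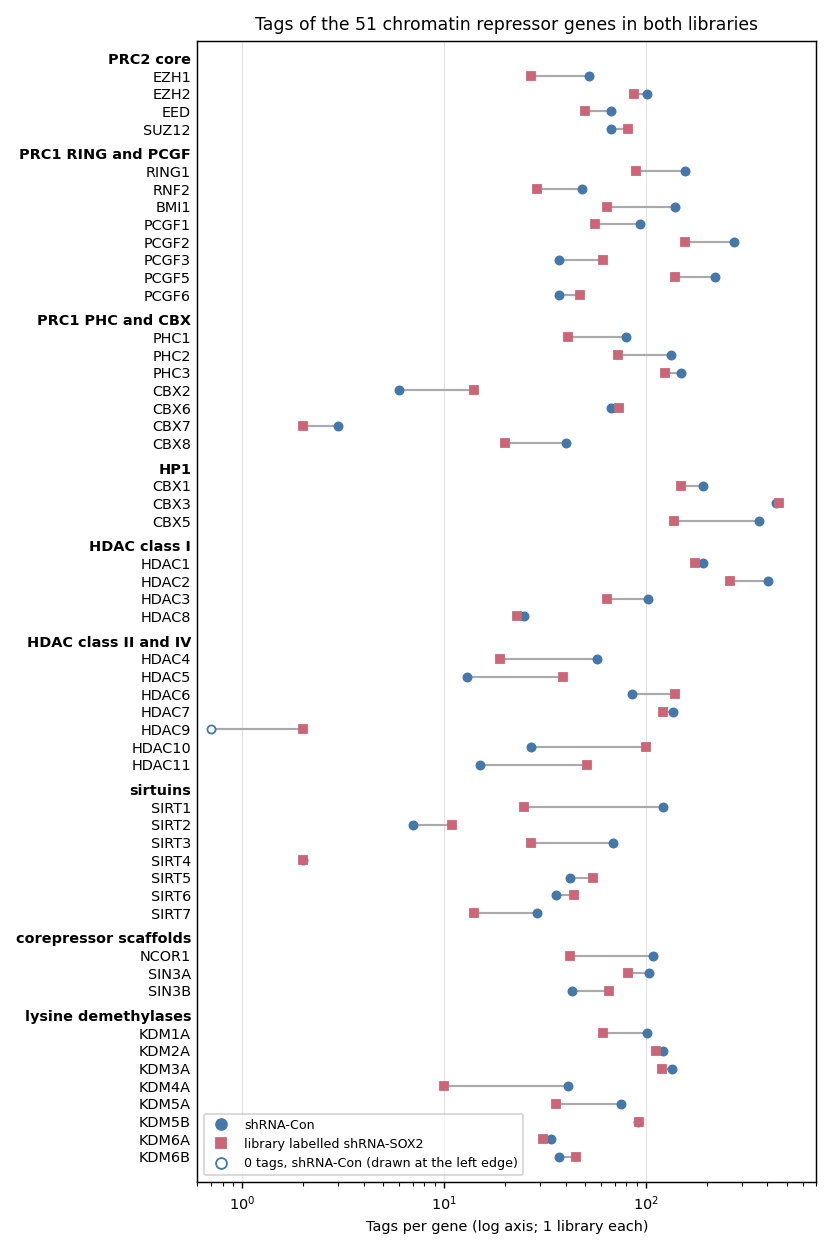
Tags of the 51 genes by family in the shRNA-Con library (circles) and in the library labelled shRNA-SOX2 (squares), on a log axis, with 1 library each, no error bars, and the 0 tags of HDAC9 as an open circle at the left edge. CBX5 dropped from 364 to 138 tags and SIRT1 from 121 to 25, while HDAC10 went from 27 to 100.

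Of the 19 Polycomb genes, BMI1 and PCGF2 passed FDR 0.001, both lower, a share near that of all genes. The PRC1 enzyme subunits and their PCGF partners summed to 1005 and 642 tags, a ratio of 0.703 (0.636 to 0.777). The 4 PRC2 core genes summed to 287 and 246 tags, a ratio of 0.943 (0.792 to 1.12), an interval that includes 1. The intervals for the PRC1 PHC and CBX genes and for PRC2 overlap, and the difference between the complexes was not tested.

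BMI1 (Entrez Gene ID 648), the PCGF subunit of canonical PRC1 named for its discovery as an oncogene, had 139 and 64 tags. The log2 fold change was -0.98 (adjusted p = 2.67e-05, Fisher's exact test). Its close relative PCGF2 (7703), also called MEL18, had 274 and 157 tags, -0.67 on the log2 scale (adjusted p = 2.20e-05, Fisher's exact test). Both thus stood lower. BMI1 overlaps COMMD3-BMI1 on the same strand and has 1 named pseudogene, and PCGF2 overlaps CISD3 (272 and 227 tags) on the opposite strand. The ubiquitin ligase subunit RING1 had 157 and 89 tags (ratio 0.624, 0.475 to 0.814), and its paralog RNF2, which carries most of the ligase activity in many cells, had 48 and 29 (0.665, 0.404 to 1.08). Neither passed FDR 0.001, with adjusted p-values of 0.00148 and 0.176 (Fisher's exact test).

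The PCGF subunits of the variant PRC1 complexes did not all point the same way. PCGF1, found in the complex with BCOR, had 94 and 56 tags (ratio 0.656), and PCGF5 had 219 and 139 (ratio 0.698). PCGF3 had 37 and 61 tags (ratio 1.81, 1.19 to 2.81) and PCGF6 had 37 and 47 (ratio 1.40). None of these 4 passed FDR 0.001, and their adjusted p-values lay between 0.00338 for PCGF5 and 0.233 for PCGF6 (Fisher's exact test). Of the 8 genes in this group, 6 had a ratio below 1, where 55.1% of all genes with at least 20 tags did. The median log2 fold change was -0.60, which is -0.50 from the median of all genes.

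The PHC subunits, which polymerize and help PRC1 gather into foci, and the CBX subunits, which bind the methyl mark, had no member past FDR 0.001. PHC1 had 80 and 41 tags, a ratio of 0.564 (0.377 to 0.832). PHC2, with 133 and 73 tags, had a ratio of 0.604 (0.448 to 0.810), and PHC3, with 149 and 124, one of 0.916 (0.716 to 1.17). In the CBX group, CBX8 had 40 and 20 tags (ratio 0.550), CBX6 had 67 and 74 (ratio 1.22) and CBX2 had 6 and 14 (ratio 2.57, 0.927 to 8.15). CBX7 was at 3 and 2 tags, within the limit that a count of 0 allows, so no ratio is given. For PHC1 and PHC2 the adjusted p-values were 0.00903 and 0.00198 (Fisher's exact test). The 7 genes summed to 478 and 348 tags, a ratio of 0.801 (0.696 to 0.922).

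In PRC2, the catalytic subunit EZH2 had 101 and 87 tags (ratio 0.948, 0.703 to 1.28). EZH1, the alternative catalytic subunit typical of resting cells, had 52 and 27 (ratio 0.571, 0.345 to 0.927). EED, which binds the methyl mark, had 67 and 50 tags (ratio 0.821), and SUZ12, the scaffold of the core, had 67 and 82 (ratio 1.35, 0.963 to 1.89). The smallest adjusted p of the 4 was 0.0481, for EZH1 (Fisher's exact test). The counting interval of EZH2, 0.703 to 1.28, includes 1, so no difference in EZH2 was detected at these counts.

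A list of 23 other Polycomb genes, drawn up from gene names, had 4 lower and 0 higher genes past FDR 0.001, where 12.2% and 9.53% of all genes were, so that the lower count is near the background. RYBP (204 and 57 tags, log2 fold change -1.70) and YAF2 (175 and 64, -1.31), the 2 related subunits that define variant PRC1, were first by adjusted p. Their adjusted p-values were 2.20e-16 and 6.33e-10 (Fisher's exact test). PHF19, named after the values were seen, is an accessory subunit of PRC2 and had 118 and 51 tags (adjusted p = 2.96e-05, Fisher's exact test). Over the 20 genes of this list with at least 20 tags the median log2 fold change was -0.42.

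The HP1 genes encode readers of the heterochromatin mark and belong to the CBX family by name, though not to Polycomb. CBX5 (23468), which encodes HP1 alpha, had 364 and 138 tags, which is -1.26 as a log2 fold change (adjusted p = 9.20e-19, Fisher's exact test). This was the smallest adjusted p of the 51 members. CBX1, for HP1 beta, had 193 and 149 tags (ratio 0.850, 0.681 to 1.06), and CBX3, for HP1 gamma, had 441 and 459 (log2 fold change 0.20, adjusted p = 0.0974, Fisher's exact test). The HP1 genes therefore did not move alike. CBX5 made up 45.2% of the tags of CBX5 and CBX3 in shRNA-Con (41.7% to 48.7%), but only 23.1% (19.8% to 26.7%) in the other library. CBX3 has 9 named pseudogenes in GENCODE release 29, CBX1 has 5 and CBX5 has 1, and how shared tags were assigned is not given in the sources used here, so the tags of CBX1 and CBX3 are uncertain. CBX3 also overlaps HNRNPA2B1 on the opposite strand, a gene with 3441 and 3873 tags.

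The promoter of CBX5 is shown because this gene had the smallest adjusted p. In the RefSeq table on GRCh38.p14 it covers chr12:54280073-54280372, minus strand, from 250 bases before to 50 bases after the transcription start. Capitals mark every match, on either strand, to the GC box GGGCGG, the CCAAT box CCAAT, the SOX core AACAAT and the E-box CACGTG. There are 2 GC boxes, 1 CCAAT box, 1 SOX core and 2 E-boxes in this window, and matches were not merged or removed where they overlapped. A match is a run of letters and not a measured binding site.
CBX5: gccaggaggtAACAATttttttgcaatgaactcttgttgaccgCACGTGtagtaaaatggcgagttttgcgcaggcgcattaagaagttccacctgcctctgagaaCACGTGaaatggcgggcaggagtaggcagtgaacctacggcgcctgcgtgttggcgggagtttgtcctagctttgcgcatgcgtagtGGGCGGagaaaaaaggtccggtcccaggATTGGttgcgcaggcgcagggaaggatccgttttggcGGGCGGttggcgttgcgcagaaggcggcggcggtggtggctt

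Class I deacetylase genes summed to 723 and 523 tags (ratio 0.796, 0.710 to 0.892), and thus to fewer in the library labelled shRNA-SOX2, whereas the class II and IV genes had more (334 and 472, ratio 1.56, 1.35 to 1.79). Neither class moved as a whole, since HDAC1, HDAC7 and HDAC8 had ratios near 1 and HDAC4 was lower. The difference between the classes was not tested.

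HDAC10 (83933), a cytoplasmic class IIb enzyme that acts on polyamines, had 27 and 100 tags. Its log2 fold change was 2.03 (ratio 4.08, 2.64 to 6.49), with an adjusted p of 1.14e-11 (Fisher's exact test). HDAC11 (79885), the class IV enzyme, known as a remover of long fatty acyl groups, had 15 and 51 tags, 1.90 on the log2 scale (adjusted p = 9.76e-06, Fisher's exact test). HDAC5 (10014), a class IIa protein that shuttles between nucleus and cytoplasm, had 13 and 39 tags, or 1.72 (adjusted p = 0.000376, Fisher's exact test). With clean tags as the scale HDAC5 fell short of the threshold (adjusted p = 0.00105, Fisher's exact test). HDAC6 (10013), the tubulin deacetylase, had 85 and 140 tags, or 0.86 (adjusted p = 7.52e-05, Fisher's exact test). These 4 enzymes are not the catalytic subunits of the nuclear corepressor complexes.

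HDAC4 (9759), the class IIa relative of HDAC5, was lower, with 57 and 19 tags, -1.45 on the log2 scale (adjusted p = 0.000374, Fisher's exact test). Opposite directions were thus counted for 2 genes of class IIa. HDAC7, the third of them with enough tags, had 137 and 121 (ratio 0.972, 0.755 to 1.25), and HDAC9 had 0 and 2 tags, too few for a ratio. HDAC10 overlaps exons of MAPK12 on the same strand in GENCODE release 29, and MAPK12 had 72 and 50 tags. How shared tags were assigned is not given in the sources used here, so the tags of HDAC10 are uncertain. HDAC11 overlaps the antisense gene HDAC11-AS1, and without a stated strand setting tags of the pair cannot be told apart.

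In class I, HDAC2 (3066) was the member past the threshold, with 404 and 261 tags, a difference of -0.49 in log2 and an adjusted p of 9.16e-05 (Fisher's exact test). With TMM or median-ratio scaling it fell short, with adjusted p-values of 0.00117 and 0.00102 (Fisher's exact test). HDAC1, its partner in the NuRD, CoREST and SIN3 complexes, had 191 and 175 tags (ratio 1.01, 0.817 to 1.24). HDAC3, the enzyme of the NCoR complex, had 103 and 64 (ratio 0.684, 0.493 to 0.943) and did not pass (adjusted p = 0.0447, Fisher's exact test). HDAC8, which deacetylates cohesin, had 25 and 23 tags (ratio 1.01, 0.549 to 1.86). HDAC1 has 2 named pseudogenes and HDAC2 overlaps HDAC2-AS2, so small differences between these genes are uncertain.

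Promoters of 3 of the 4 higher deacetylases are shown because these genes were the higher members, and HDAC5 had no entry in the table used. Coordinates are of GRCh38.p14, and the capitals mark the same motifs as for CBX5. The HDAC6 window (chrX:48801817-48802116, plus strand) held 2 GC boxes and 2 CCAAT boxes. That of HDAC10 (chr22:50251216-50251515, minus strand) held 4 GC boxes and 1 CCAAT box. In the HDAC11 window (chr3:13480056-13480355, plus strand) there were 5 GC boxes. None of the 3 held a SOX core or an E-box.
HDAC6: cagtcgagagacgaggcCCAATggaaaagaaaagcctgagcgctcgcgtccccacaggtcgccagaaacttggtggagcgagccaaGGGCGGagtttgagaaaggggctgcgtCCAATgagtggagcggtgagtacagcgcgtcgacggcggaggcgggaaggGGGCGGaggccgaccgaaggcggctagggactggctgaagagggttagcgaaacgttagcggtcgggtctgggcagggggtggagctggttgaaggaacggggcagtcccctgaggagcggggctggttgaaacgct
HDAC10: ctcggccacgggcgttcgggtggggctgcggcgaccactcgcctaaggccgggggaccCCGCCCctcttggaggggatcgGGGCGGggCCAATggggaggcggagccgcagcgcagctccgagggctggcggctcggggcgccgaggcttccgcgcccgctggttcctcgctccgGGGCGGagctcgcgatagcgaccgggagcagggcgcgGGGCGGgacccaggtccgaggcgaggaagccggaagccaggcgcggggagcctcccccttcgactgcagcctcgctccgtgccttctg
HDAC11: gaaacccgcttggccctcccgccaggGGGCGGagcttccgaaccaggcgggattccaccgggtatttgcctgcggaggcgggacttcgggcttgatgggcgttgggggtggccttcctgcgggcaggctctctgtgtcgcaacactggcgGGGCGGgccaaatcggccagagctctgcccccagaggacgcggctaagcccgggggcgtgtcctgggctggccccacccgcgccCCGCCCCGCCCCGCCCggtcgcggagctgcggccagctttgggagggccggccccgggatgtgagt

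Promoters were found for 47 of the 51 members, the exceptions being HDAC5, CBX2, CBX8 and SIRT7. A GC box stood in 31 of them (66.0%, against 45.0% of all 35116 promoters in the table), a CCAAT box in 19 (40.4%, against 34.6%), a SOX core in 8 (17.0%, against 10.1%) and an E-box in 7 (14.9%, against 7.26%). The table also holds noncoding genes, and the median GC content was 66.7% in the members' promoters and 58.7% in all.

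**Figure D2:**
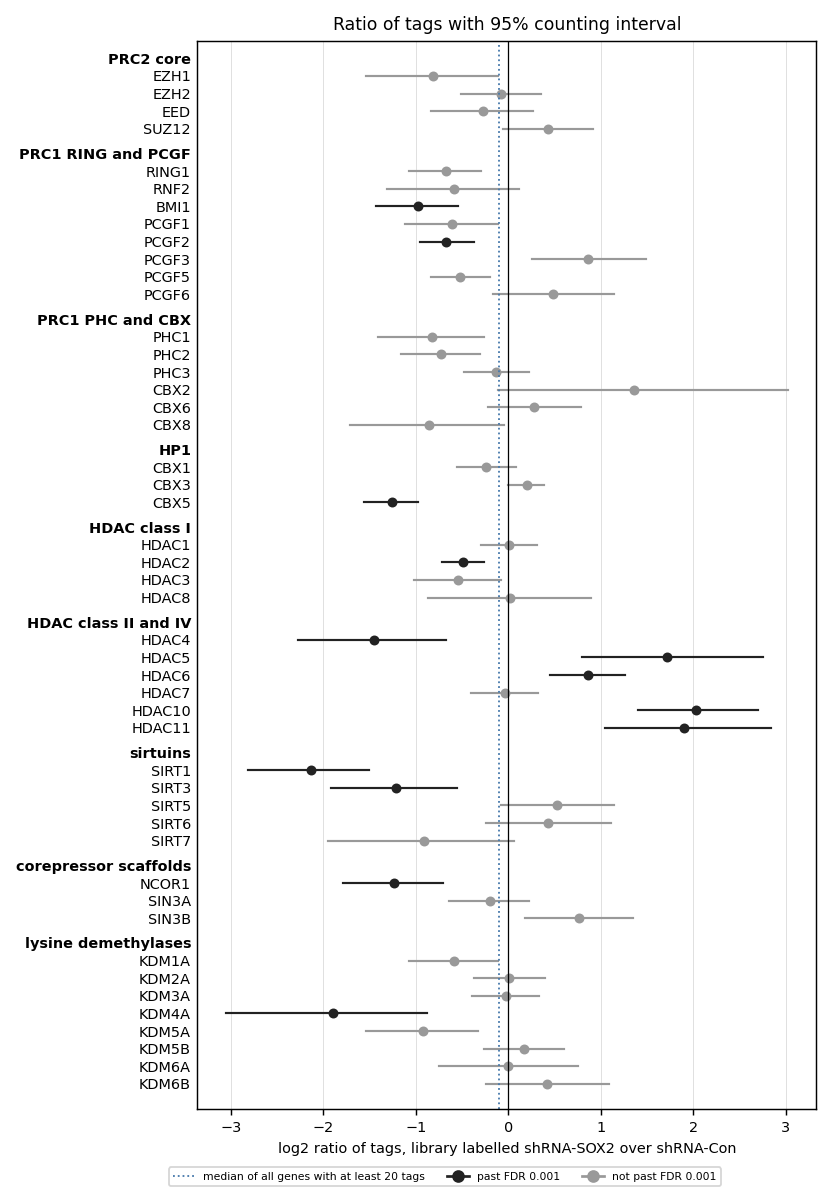
Log2 ratio of tags (library labelled shRNA-SOX2 over shRNA-Con) for the 47 genes with at least 20 tags, by family, with 95% counting intervals, black for genes past FDR 0.001. The dotted line is the median of all genes, -0.10. HDAC5, HDAC6, HDAC10 and HDAC11 lie to the right, and SIRT1, at -2.14, lies farthest left.

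Of the 7 sirtuins, 2 passed FDR 0.001, both lower, where 12.2% of all genes were lower. SIRT1 (23411), the nuclear sirtuin that deacetylates p53 and histones, had 121 and 25 tags. Its log2 fold change of -2.14 (ratio 0.227, 0.142 to 0.352) was the lowest of the 47 members with at least 20 tags (adjusted p = 3.68e-13, Fisher's exact test). SIRT3 (23410), the main deacetylase of mitochondria, had 69 and 27 tags, -1.22 on the log2 scale (adjusted p = 0.000636, Fisher's exact test). With TMM factors or the median ratio SIRT3 fell short of the threshold (adjusted p = 0.00140 and 0.00139, Fisher's exact test). SIRT3 overlaps PSMD13 on the opposite strand, and PSMD13 had 283 and 222 tags.

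The other sirtuins did not pass the test. The nucleolar SIRT7 had 29 and 14 tags (ratio 0.531, 0.259 to 1.04) and overlaps MAFG, which had 303 and 163 tags, on the same strand. SIRT5, a mitochondrial desuccinylase, had 42 and 55 (ratio 1.44, 0.947 to 2.21), and SIRT6, a telomere and chromatin sirtuin, had 36 and 44 (ratio 1.35, 0.846 to 2.15). SIRT2 had 7 and 11 tags and SIRT4 had 2 and 2, counts too low to compare. Summed over the 7 sirtuins, 306 and 178 tags gave a ratio of 0.640 (0.529 to 0.773), and without SIRT1 the ratio was 0.910.

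The SIRT1 promoter is shown as that of the member with the lowest ratio. It covers chr10:67884406-67884705, plus strand of GRCh38.p14 and held 4 GC boxes, 2 E-boxes, 0 CCAAT boxes and 0 SOX cores.
SIRT1: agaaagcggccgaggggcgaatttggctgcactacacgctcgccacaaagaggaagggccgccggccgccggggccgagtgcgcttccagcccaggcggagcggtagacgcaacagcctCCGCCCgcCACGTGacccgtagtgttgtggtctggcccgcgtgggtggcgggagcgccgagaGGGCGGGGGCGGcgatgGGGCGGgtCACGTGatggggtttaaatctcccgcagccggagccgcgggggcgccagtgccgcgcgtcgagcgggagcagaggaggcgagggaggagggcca

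Among the corepressor scaffolds, NCOR1 (9611), which holds HDAC3 in the NCoR complex, had 109 and 42 tags. Its log2 fold change was -1.24 (adjusted p = 5.61e-06, Fisher's exact test). NCOR1 has 3 named pseudogenes and overlaps PIGL, which had 20 and 13 tags. The 2 SIN3 scaffolds pointed in opposite directions, with 104 and 82 tags for SIN3A (ratio 0.868, 0.642 to 1.17) and 43 and 66 for SIN3B (ratio 1.69, 1.13 to 2.54). Neither passed FDR 0.001 (adjusted p = 0.484 and 0.0220, Fisher's exact test).

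Of 29 other genes of deacetylase complexes, 6 passed FDR 0.001 as lower and 1 as higher, beside the 12.2% and 9.53% of all genes. First by adjusted p stood GPS2, a subunit of the NCoR complex, with 271 and 67 tags (log2 fold change -1.88). BRMS1L, a subunit of the SIN3 complex, had 25 and 84 (1.89). Their adjusted p-values were 1.08e-24 and 5.41e-09 (Fisher's exact test). Named after the values were seen, TBL1XR1, another NCoR subunit, had 245 and 131 tags (-0.77, adjusted p = 4.67e-06, Fisher's exact test) and its relative TBL1X had 143 and 97 (-0.42, adjusted p = 0.0699, Fisher's exact test). Over the 28 genes of this list with at least 20 tags the median log2 fold change was -0.53.

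The lysine demethylases had 1 of 8 genes past FDR 0.001, as lower, near the 12.2% of all genes that were lower. KDM4A (9682), which erases methyl marks of heterochromatin and of transcribed genes, had 41 and 10 tags, or -1.90 on the log2 scale (ratio 0.268, 0.120 to 0.545; adjusted p = 0.000294, Fisher's exact test). Its locus carries the antisense gene KDM4A-AS1. KDM5A, an eraser of a promoter mark, had 75 and 36 tags (ratio 0.528, 0.345 to 0.796; adjusted p = 0.00591, Fisher's exact test), and its paralog KDM5B had 91 and 93 (ratio 1.12, 0.833 to 1.52). KDM1A, the CoREST demethylase also called LSD1, had 101 and 61 (ratio 0.665, 0.476 to 0.922; adjusted p = 0.0335, Fisher's exact test).

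KDM2A had 122 and 112 tags (ratio 1.01, 0.775 to 1.32), and KDM3A, an eraser of repressive marks induced by hypoxia, had 135 and 120 (ratio 0.978, 0.759 to 1.26). KDM6A and KDM6B remove the Polycomb mark. They had 34 and 31 tags (log2 fold change 0.00, with a ratio interval of 0.596 to 1.68) and 37 and 45 tags (ratio 1.34, 0.847 to 2.13). No difference in these erasers was detected at this depth. The median log2 fold change of the 8 demethylases was -0.01. A list of 15 further genes was grouped here as demethylases, and the activity of each product was not checked. Its 2 lower genes past FDR 0.001 were RIOX2 (listed as MINA, 161 and 79 tags, -0.89) and RIOX1 (listed as C14orf169, 73 and 28, -1.24). The list had 1 higher gene, KDM4B, a paralog of KDM4A, with 9 and 36 tags and a log2 fold change of 2.14. The adjusted p-values were 3.33e-05, 0.000293 and 8.80e-05 (Fisher's exact test). Of all genes, 12.2% were lower and 9.53% higher past FDR 0.001, so that 2 and 1 of 15 are near the background.

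The balance within a pair of paralogs does not depend on how the libraries are scaled. For 11 pairs the share of the first gene was compared by an odds ratio, and its 95% interval did not include 1 in 6, of which 2 share CBX3. These intervals were not adjusted for the number of pairs and cover counting error only. In Fisher's exact test, which also covers counting error only, 44.2% of all genes had an unadjusted p below 0.05. The 6 of 11 is therefore not a result about these pairs. Between the deacetylases HDAC1 and HDAC2, HDAC1 made up 32.1% of the tags in shRNA-Con, compared with 40.1% in the other library (odds ratio 1.42, 1.09 to 1.85). SIN3B made up 29.3% and 44.6% of the SIN3 tags (odds ratio 1.94, 1.17 to 3.24). The share of KDM5B in the tags of KDM5B and KDM5A was 54.8% and 72.1% (odds ratio 2.12, 1.27 to 3.60). PHC2 made up 47.2% and 37.1% of the tags of PHC2 and PHC3 (odds ratio 0.660, 0.447 to 0.972).

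The largest shift of the 11 was the one of CBX5 against CBX3, with an odds ratio of 0.365 (0.286 to 0.464), and CBX1 against CBX3 had one of 0.742 (0.573 to 0.960). In Polycomb, the share of RING1 in RING1 and RNF2 was 76.6% and 75.4% (odds ratio 0.938, 0.537 to 1.66) and that of PCGF2 in PCGF2 and BMI1 was 66.3% and 71.0% (1.24, 0.861 to 1.81). EZH1 made up 34.0% and 23.7% of the tags of EZH1 and EZH2 (0.604, 0.334 to 1.07). For HDAC3 with HDAC8 the odds ratio was 0.677 (0.337 to 1.36) and for KDM6B with KDM6A it was 1.33 (0.660 to 2.70). The intervals of these 5 pairs include 1, and several are wide enough to hold a 2-fold shift.

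**Figure D3:**
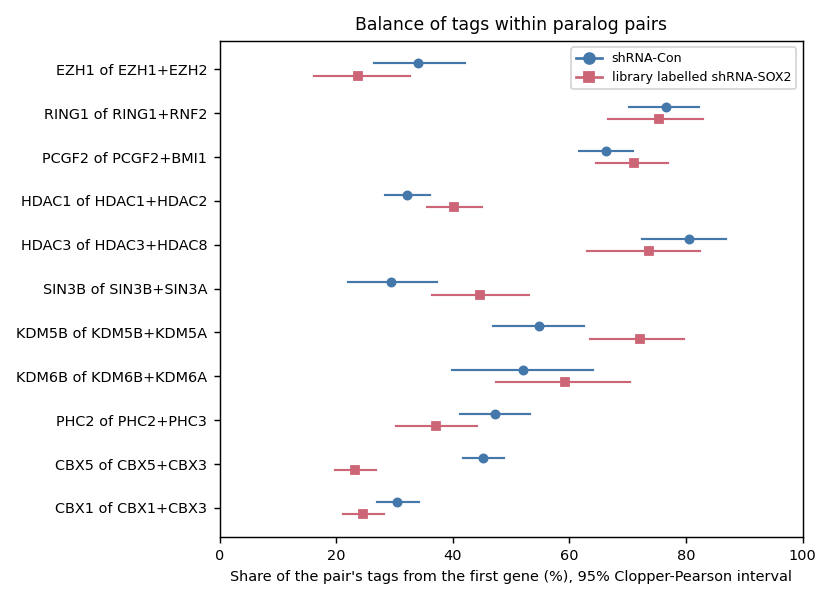
Share of the tags of a paralog pair that belong to the first gene, in percent, with 95% Clopper-Pearson intervals, for shRNA-Con (circles) and the library labelled shRNA-SOX2 (squares). CBX5 made up 45.2% and 23.1% of the tags of CBX5 and CBX3, with intervals that do not meet.

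The calls above include no spread between cultures. Where biological variation between cultures was set at a coefficient of 0.1 in edgeR's exact test, the members past FDR 0.001 were CBX5, SIRT1, HDAC10 and HDAC11. These are 2 lower and 2 higher of 51, where 4.98% of all genes were lower and 3.9% higher, so both counts are near the background. At a coefficient of 0.2 these shares of all genes were 0.365% and 0.495%. With a coefficient of 0.2 none of the 51 passed, where HDAC10 had an adjusted p of 0.00582 and SIRT1 of 0.00262, and 10 members had an unadjusted p below 0.05.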

How the data were processed

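DGE tags were sequenced by the study from oligo(dT)-selected mRNA of 2 A549 populations. The authors deposited raw tag counts per Entrez Gene ID without normalization. The deposited TPM, which scales to clean tags and writes 0 as 0.01, served only to recover the clean tags (3516266 for shRNA-Con and 3456234 for the library labelled shRNA-SOX2). The submitters' processing notes name hg19, and the aligner and annotation are not given in the sources used here. The authors' deposited log2 ratios, p-values and FDR were not used.

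A count below 3 tags was set to 3 for fold changes, and no ratio is given where neither library exceeded 3. A count of 0 allows up to 3 tags in a library. Fisher's exact test was run across all genes, and medians use genes with at least 20 tags. All members with that many are named, and up to 3 genes by adjusted p of each companion list, with exceptions stated and some genes not reported here. Rows with no symbol held 0.0535% and 0.0372% of the tags. Members and lists were chosen with earlier results of these data known. Alternatives were TMM, median-ratio and clean-tag scaling, minima of 10 and 50 tags, 0.5 added to each count, FDR 0.05, sums without the largest member, and edgeR's exact test with assumed coefficients of variation. Python 3.11.15, scipy 1.17.1, R 4.3.3, edgeR 4.0.16 and DESeq2 1.42.0 were used. Fisher's test, the fold changes and the ratio intervals were tested on simulated counts that held counting error only, and the other steps were not. Overlaps and pseudogenes are from GENCODE release 29.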

Additional observations from a re-analysis of the deposited data

How the results depend on the processing

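Of the members past FDR 0.001, 9 were lower and 4 higher. An assumed biological coefficient of variation of 0.1 (edgeR's exact test) left 2 lower and 2 higher, where 4.98% and 3.9% of all genes were. Coefficients of 0.2 and 0.4 left 0 and 0, with 10 and 2 members at an unadjusted p below 0.05. Of all genes, 0.365% were lower and 0.495% higher at 0.2, and 0 passed at 0.4. FDR 0.05 gave 18 lower and 6 higher, where 21% and 16.4% of all genes were. TMM factors and the median ratio lost HDAC2 and SIRT3, and clean tags lost HDAC5 and gained PCGF5, PHC2 and RING1. The median log2 fold change of all genes was -0.03 with TMM factors and -0.22 with clean tags, a shift of -0.11 that applies to each gene alike. Without the member with most tags, the ratio of summed tags was 0.567 for HP1 (without CBX3) and 0.904 for class I deacetylases (without HDAC2). It was 1.96 for class II and IV (without HDAC7) and 0.910 for sirtuins (without SIRT1). Each removed member had a ratio unlike that of the remaining sum, 1.15 for CBX3, 0.711 for HDAC2, 0.972 for HDAC7 and 0.227 for SIRT1. Members near 0 changed sign, with clean tags to -0.10 for HDAC1, HDAC8 and KDM2A and -0.11 for KDM6A, and with TMM factors or the median ratio to 0.03 for HDAC7 and 0.04 for KDM3A. No paired analysis was possible because only 1 library was made per condition, which also bars leaving out a library. Depth limits members such as CBX2, with 6 and 14 tags.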

Other observations

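Genes whose products write the marks that the members erase, or that Polycomb holds silent in many cells, were counted from lists written from gene names. Of 10 histone acetyltransferases, 9 had a ratio below 1 (against 55.1% of genes with at least 20 tags) and the median log2 fold change was -0.67, against -0.10 for all genes. CREBBP, a coactivator acetyltransferase, passed FDR 0.001 with 236 and 118 tags (adjusted p = 5.46e-07, Fisher's exact test), and KAT2A, the acetyltransferase of the SAGA complex, passed it in the other direction with 195 and 266 (adjusted p = 9.72e-05, Fisher's exact test). Of 23 histone methyltransferases, NSD1 passed FDR 0.001 as higher (108 and 182 tags, log2 fold change 0.89). NSD3, listed as WHSC1L1, passed it as lower (126 and 58, -0.98). Their adjusted p-values were 2.04e-06 and 6.82e-05 (Fisher's exact test). The median log2 fold change of the 23 was -0.35, with 14 below 0 and 9 above. Each list thus had 1 lower and 1 higher gene past FDR 0.001. Of all genes, 12.2% were lower and 9.53% higher, so these counts are near or below the background.

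HOX genes, which set position along the body axis and are classical Polycomb targets, had ratios on both sides of 1, more of them above. Of 39 in the list, 25 were in the table and 18 had at least 20 tags. Their median log2 fold change was 0.50, with 13 above 0 and 5 below, where 55.1% of all genes with at least 20 tags were below. Of the 18, 8 were at least 2-fold higher and 2 at least 2-fold lower, against 10.4% and 13.0% of all genes with that many tags. The 25 genes summed to 443 and 697 tags, a ratio of 1.73 (1.53 to 1.95). HOXB13 had 11 and 68 tags (2.77), HOXB6 had 17 and 94 (2.61) and HOXC13 had 64 and 123 (1.08), and these 3 passed FDR 0.001, near the 9.53% of all genes that were higher, with adjusted p-values of 2.69e-11, 1.06e-14 and 5.24e-06 (Fisher's exact test). Chosen after its values were seen, HOXB9 had 41 and 14 tags (-1.41) and did not pass (adjusted p = 0.00403, Fisher's exact test). With 1 library per condition, a relation between these genes and the members was not tested.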
